A study of Mus musculus with 60 samples.

Results

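The response of mouse cortical neurons to brain-derived neurotrophic factor (BDNF) was measured at 3 days in vitro (DIV3) in cultures that had all received paxillin siRNA. Libraries were chosen by their labels, namely paxillin siRNA at DIV3 with BDNF (4 libraries, numbered 1, 2, 10, and 11) and without BDNF (5 libraries, numbered 1, 2, 3, 10, and 11). These 9 libraries are part of 60 samples in the series, 48 of which are short-read RNA libraries. Per the labels, the cells were wild-type neurons of the cerebral cortex, prepared from mouse embryos (E18 in the labels, E15 in a legend) and grown in neurobasal medium. BDNF (20 ng/ml) and the siRNA, a pool of 2 siRNAs against paxillin, were both given at DIV2. The comparison groups at DIV3 received scrambled control (SC) siRNA with BDNF (3 libraries) or without it (3 libraries). The study describes its groups as independent cultures, and the number of a library is called its culture number here. Libraries with the same number deviated from their group means in the same direction, as did number 1 with 2 and number 10 with 11 to a lesser extent, and cultures 1, 2, 10, and 11 were also compared within each culture.

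BDNF is a secreted neurotrophin that binds the receptor tyrosine kinase TrkB, encoded by Ntrk2. Activated TrkB signals through the Ras-ERK, PI3K-Akt, and phospholipase C-gamma pathways, and the ERK branch reaches the nucleus and induces immediate early genes within minutes to hours. The products of these genes are largely transcription factors, which act on later genes such as neuropeptides and synaptic proteins, while phosphatases and Sprouty proteins damp the signal again. In the cortex, BDNF is known for its roles in dendrite growth, synapse maturation, and plasticity. Paxillin is a scaffold protein of focal adhesions, which link integrins to the actin cytoskeleton, and the study examined it as a regulator of alternative splicing in neurons.

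The values are TPM (abundance per length, scaled to 1000000 in each library), so the depth behind each value is unknown. Between 21039 and 22642 genes had a value above 0 in each of the 9 libraries, and the 50 most abundant genes took 21.9% to 24.8% of the TPM. The 10 neuronal marker genes summed to 3530 to 5300 TPM, against 344 to 1120 TPM for 10 astrocyte markers and 31.6 to 118 TPM for 10 microglial markers. No marker of the 7 cell type lists was at 0 in all 9 libraries. With BDNF and without it, the summed ranges overlapped for every one of these lists, and 0 marker genes passed the test used below. Over all genes 2.14% passed it, so a count of 0 is near that share and nothing is read from it. Within the cultures, the 12 markers of dividing progenitors summed to less with BDNF in all 4, at 753 against 912, 584 against 769, 519 against 567, and 787 against 814 TPM in cultures 1, 2, 10, and 11. Of these 12 markers, 11 had a negative log2 difference (median -0.23), and their part in the results below was not tested. In the paired fit described there, 2 neuronal markers did, Slc17a7 (1.01 higher) and Tubb3 (-0.71). Since these are bulk samples, fewer cells of a type and less RNA per cell cannot be told apart.

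Pxn, the target of the siRNA (chromosome 5, 115491970 to 115555987 in GRCm38.p6), was at 10.3, 11.8, 10.0, and 10.1 TPM with BDNF in cultures 1, 2, 10, and 11. Without BDNF it was at 8.02, 9.49, 11.4, 8.38, and 7.79 TPM in cultures 1, 2, 3, 10, and 11. The groups overlapped only through culture 3, which has no library with BDNF. The difference of the mean log2(TPM + 1) was 0.21 and was not larger than the spread between libraries (2-sided exact permutation test, p = 0.111, where 0.0159 is the smallest p that 4 against 5 libraries allow). Without culture 3 it was 0.29 (exact permutation p = 0.0286), and after rescaling by size factors it was 0.21 (exact permutation p = 0.0476). Within cultures 1, 2, 10, and 11 Pxn was higher with BDNF by 0.32, 0.29, 0.23, and 0.33 on the log2 scale (exact permutation test over the 4 pairs, p = 0.125, which no set of 4 can go below). With culture as a replicate block in limma it did not pass (0.25, adjusted p = 0.231), whereas it passed when that fit held only the groups compared (0.29, adjusted p = 0.0366). Between the siRNA labels, without BDNF, Pxn differed by -0.16 on the log2 scale (adjusted p = 1, limma), so no knockdown was detected at DIV3. With SC siRNA it was at 9.16, 9.65, and 11.7 TPM in cultures 1, 2, and 3, slightly above paxillin siRNA in each. With SC siRNA and BDNF it was at 8.05 and 12.3 TPM in cultures 1 and 2, below paxillin siRNA in culture 1 and above it in culture 2. The libraries are therefore called by their labels throughout.

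Over the 14250 genes whose mean reached 1 TPM, 305 passed at an adjusted p under 0.05 in limma (2.14%). Of these, 187 genes were higher with BDNF (1.31% of the genes tested) and 118 were lower (0.828%). The rises were larger than the falls. The median log2 difference was 1.21 among the higher genes and -0.76 among the lower genes, while the median of all genes tested was -0.02. A log2 difference beyond 2 was reached by 36 higher genes and 2 lower ones. The groups of 4 and 5 libraries did not overlap for 182 of the 187 higher genes and 112 of the 118 lower ones. Of all genes tested, 6.69% were higher and 6.32% lower without overlap. The 305 genes were called on these same libraries, so their separation is not separate evidence. In the paired fit, with culture number as a replicate block, 894 genes were higher (6.27%) and 823 lower (5.78%), a total of 1717 that included all 305. Log2 differences below are on the log2(TPM + 1) scale, where changes at low levels appear smaller than they are.

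**Figure D1:**
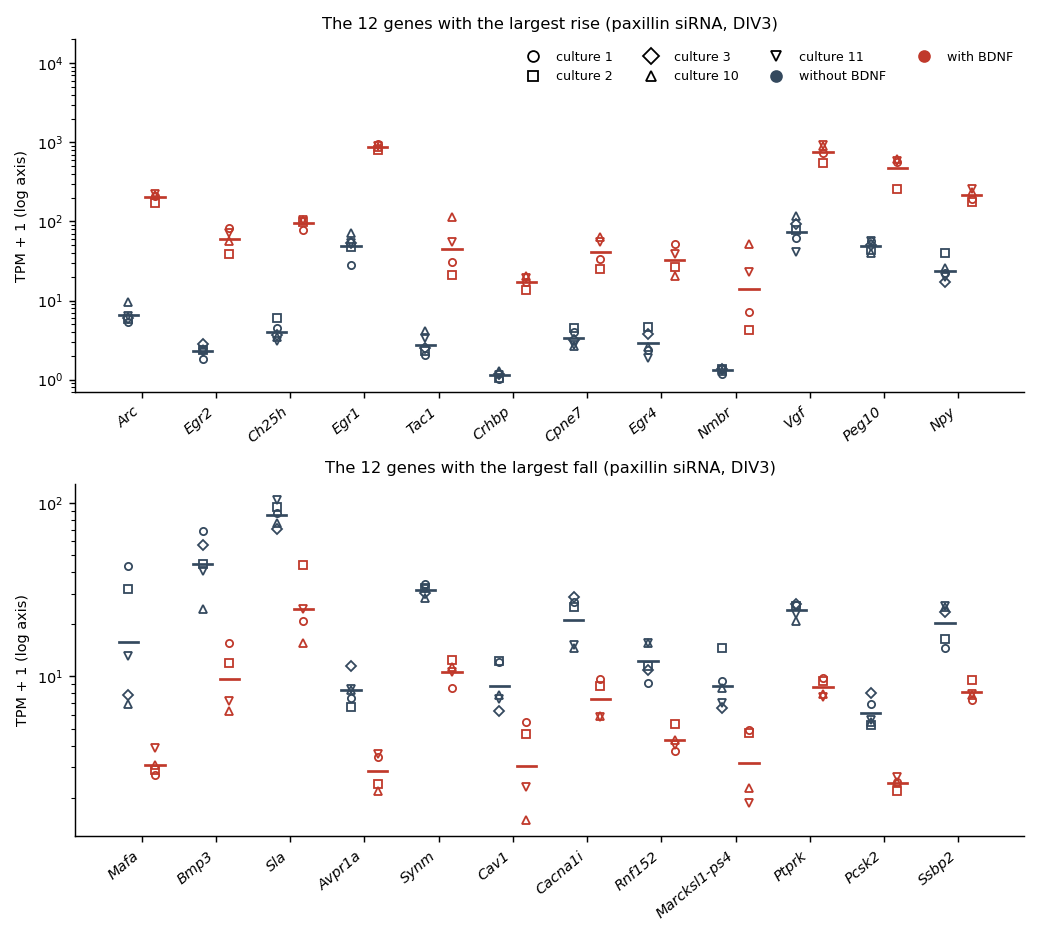
TPM + 1 (log axis) in each of the 9 libraries for the 12 largest rises (top) and the 12 largest falls (bottom) among called genes with no overlap between the groups. Symbols are cultures, colors are libraries with and without BDNF, and bars are means on the log scale. Arc sits between 168 and 223 TPM in the 4 libraries with BDNF and between 4.34 and 8.60 TPM in the 5 without it.

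Immediate early genes were among the largest rises, and Arc and Egr2 had the largest log2 differences of all genes called. Over the list, the median log2 difference was 0.44. Against 1.31% of all genes higher (0.828% lower), 7 of 29 members tested rose (Arc, Egr2, Egr1, Egr4, Ier2, Junb, and Ier5) and 0 fell. Without cultures 10 and 11, 4 of them passed, and without cultures 1 and 2, 5 did. Arc, an activity-regulated cytoskeletal protein that acts in AMPA receptor endocytosis, was at 207, 168, 217, and 223 TPM with BDNF in cultures 1, 2, 10, and 11. Without BDNF, Arc was at 4.34, 4.87, 5.04, 8.60, and 5.40 TPM in cultures 1, 2, 3, 10, and 11. Every library with BDNF was far above every library without it, and the ratio of the mean TPM was 36.1 (log2 difference 4.97 ± 0.39 SE, adjusted p = 1.51e-11, limma). Egr2, a zinc finger transcription factor, was at 81.1, 38.1, 55.2, and 71.1 TPM with BDNF in the same order, and at 0.826 to 1.82 TPM without it. Its log2 difference was 4.70 ± 0.33 (adjusted p = 1.47e-12), the smallest p of all genes tested. Egr1, its close relative, started from a higher level of 27.5 to 69.8 TPM and reached 796 to 943 TPM (log2 difference 4.17). Egr4 rose by 3.48 on the log2 scale, from 0.871 to 3.62 TPM up to 19.6 to 51.5 TPM.

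The other immediate early genes that passed differed by less than these 3 Egr genes and Arc. Junb rose by 1.71 on the log2 scale, from 22.4 to 47.5 TPM up to 85.0 to 138 TPM, a call that was lost in 7 of 9 fits that left out 1 library and without a filter (adjusted p = 0.0523). The serum-inducible genes Ier2 (1.72) and Ier5 (0.85) rose as well. Fos had a log2 difference of 1.70 that did not pass without the block, and its groups overlapped. In the paired fit with culture as a replicate block, Fos (2.10, adjusted p = 0.000864), Egr3, Maff, Ier3, Nr4a1, and Npas4 also rose. That makes 13 of 29 members higher and 0 lower, against 6.27% and 5.78% of all genes in that fit. Within the cultures, the change of Fos ranged from 1.70 to 2.76.

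Feedback inhibitors and targets of ERK signaling rose as well. The list median was 0.45. Of 19 members tested, 9 rose and 0 fell, against 1.31% and 0.828% of all genes. In the paired fit with the replicate block 12 rose, against 6.27% of all genes. Of the 9, 2 passed without cultures 10 and 11 and 2 without cultures 1 and 2. The dual specificity phosphatases, which remove phosphate from MAP kinases, included the genes with the largest differences, Dusp5 and Dusp6. Dusp5 was at 5.73, 8.85, 19.7, and 12.8 TPM with BDNF in cultures 1, 2, 10, and 11, and at 0.503 to 1.88 TPM without it (log2 difference 2.61 ± 0.32, adjusted p = 5.52e-07). Dusp6, which is selective for ERK in the cytoplasm, was at 656, 477, 449, and 465 TPM with BDNF and at 85.1 to 161 TPM without it (2.18 ± 0.43, adjusted p = 0.00183). Dusp4 (1.80) and Dusp14 (1.28) rose too. Among the Sprouty and Spred proteins, which restrain receptor tyrosine kinase signaling upstream of ERK, Spry4 (1.78), Spred3 (1.71), and Spry2 (1.13) rose. The ETS factors Etv5 (1.88) and Etv4 (1.79), transcriptional targets of this pathway, rose by similar amounts. For each of these 9 genes, all 4 libraries with BDNF were above all 5 without it, as for 182 of the 187 higher genes called.

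Promoter sequences are shown for 5 genes that rose, since the letters of serum response and cyclic AMP response elements can be seen in them directly. They were taken from RefSeq (GRCm38.p6), 5′ to 3′ on the strand of the gene. Stretches annotated as exons were left out, except that the last bases of Vcl lie past 20929383, the annotated start of the gene. The Egr2 stretch lies inside the annotated gene (67534469 to 67542188), before an internal start site. Capitals mark matches to the CArG box, the core of the serum response element, and to TGACG, the shorter site of the cyclic AMP response element, read on either strand (CGTCA is the same shorter site on the other strand). The full element TGACGTCA contains the shorter site on both strands.
Egr2 (chr10:67537789-67537818, plus strand): tcctcagtCCATATATGGgcagcgaCGTCA
Egr4 (chr6:85513590-85513839, minus strand): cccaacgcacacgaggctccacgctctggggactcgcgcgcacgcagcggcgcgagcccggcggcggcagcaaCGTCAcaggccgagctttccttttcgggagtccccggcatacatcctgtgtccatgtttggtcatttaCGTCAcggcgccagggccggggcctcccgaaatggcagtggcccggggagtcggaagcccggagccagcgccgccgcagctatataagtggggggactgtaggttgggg
Dusp5 (chr19:53528895-53529108, plus strand): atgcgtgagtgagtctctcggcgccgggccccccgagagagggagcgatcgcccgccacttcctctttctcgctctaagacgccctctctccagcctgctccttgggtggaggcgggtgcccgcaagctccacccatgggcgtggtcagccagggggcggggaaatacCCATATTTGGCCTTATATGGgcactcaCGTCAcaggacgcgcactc
Vcl (chr14:20929148-20929397, plus strand): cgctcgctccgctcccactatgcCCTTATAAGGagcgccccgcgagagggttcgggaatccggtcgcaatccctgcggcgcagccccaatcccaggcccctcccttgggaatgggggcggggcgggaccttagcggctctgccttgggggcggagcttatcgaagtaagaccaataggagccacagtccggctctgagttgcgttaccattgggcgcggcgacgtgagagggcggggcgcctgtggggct
Ch25h (chr19:34475165-34475382, minus strand): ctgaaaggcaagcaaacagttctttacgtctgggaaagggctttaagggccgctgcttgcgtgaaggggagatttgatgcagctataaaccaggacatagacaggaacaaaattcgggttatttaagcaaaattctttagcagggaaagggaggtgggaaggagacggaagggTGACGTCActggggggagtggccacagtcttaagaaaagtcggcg
Dusp5 holds a pair of adjacent CArG boxes, Egr2 and Vcl hold 1 each, and Ch25h holds the full TGACGTCA.

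Over the 250 bases before the start, a CArG box was found in 6 of 129 higher genes with a promoter in the table (4.65%) and in 4 of 93 lower genes (4.30%). It was found in 1.31% of the genes tested and in 1.47% of all promoters. TGACGTCA was found in 4.65% of the higher genes, 2.15% of the lower genes, 3.03% of the genes tested, and 1.55% of all promoters. The shorter site TGACG was found in 38.8% of the higher genes, 32.3% of the lower genes, and 29.7% of the genes tested. The Egr sites GCGTGGGCG or GCGGGGGCG were found in 10.9%, 7.53%, and 6.73% in the same order, and the AP-1 sites TGACTCA or TGAGTCA in 5.43%, 4.30%, and 3.61%. A match describes these letters only and was not tested as a binding site.

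**Figure D2:**
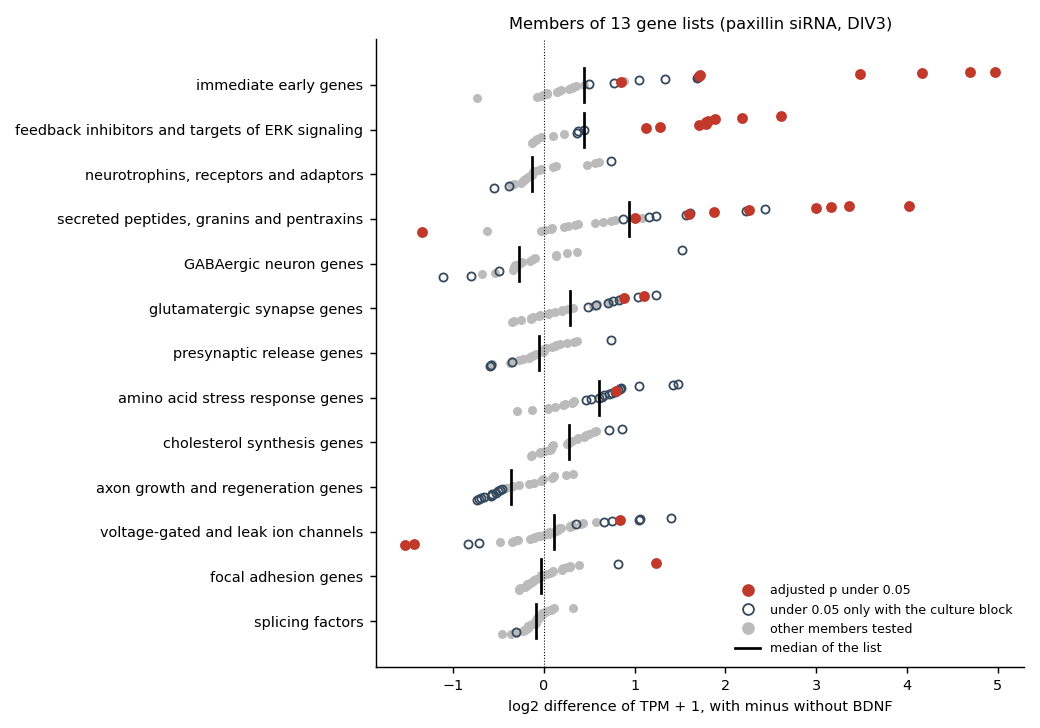
Log2 difference with BDNF (x axis, log2 of TPM + 1) of every tested member of 13 gene lists (rows). Filled red points passed at an adjusted p under 0.05, open points passed only in the paired fit, grey points passed in neither, and vertical bars are list medians. Immediate early genes and ERK feedback genes have their called members on the right only (7 and 9), and the secreted peptides have the highest median, 0.94.

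Neuropeptides and other secreted proteins were also higher with BDNF. Of 30 members tested, 8 rose and 1 fell, against 1.31% and 0.828% of all genes. The list median of 0.94 compares with -0.02 for all genes. Without cultures 10 and 11, 0 members passed, and without cultures 1 and 2, 3 rose. Tac1, the precursor of substance P and neurokinin A, was at 29.3, 20.1, 114, and 54.3 TPM with BDNF in cultures 1, 2, 10, and 11, and at 1.07, 1.27, 1.53, 3.08, and 2.34 TPM without it in cultures 1, 2, 3, 10, and 11. All 4 treated libraries were higher, and both values above 50 TPM came from cultures 10 and 11 (log2 difference 4.02 ± 0.66, adjusted p = 0.000148). Vgf, a neurotrophin-inducible secretory protein, was at 725, 543, 903, and 917 TPM with BDNF and at 39.5 to 116 TPM without it (3.36 ± 0.78, adjusted p = 0.0104). Npy, neuropeptide Y, was at 191, 174, 236, and 259 TPM with BDNF against 16.1 to 38.4 TPM (3.16). Crh, corticotropin-releasing hormone, was at 102, 52.4, 17.6, and 62.4 TPM with BDNF against 2.32 to 8.09 TPM (3.00, adjusted p = 0.0486), and it lost this call in 8 of 9 fits that left out 1 library.

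Pentraxins and peptide-processing enzymes belong to the same list. The neuronal pentraxins Nptx2 (2.26) and Nptx1 (1.60), which cluster AMPA receptors at synapses, rose, as did Nts, the precursor of neurotensin (1.88). Carboxypeptidase E (Cpe), which trims peptide precursors, rose by 1.00. With 1 library left out, the call of Cpe was lost in 6 of 9 fits and that of Nptx1 in 5 of 9. In contrast, the prohormone convertase Pcsk2 fell by 1.34 on the log2 scale, from 4.22 to 7.04 TPM down to 1.18 to 1.64 TPM. The other convertase, Pcsk1, was 1.24 higher in the paired fit only (adjusted p = 0.00389). In that fit 15 members rose and 1 fell, against 6.27% and 5.78% of all genes. Sst (2.30), Cort (2.41), Scg2 (1.80), Stc2 (1.82), Stc1 (1.17), and Igf1 (0.84) were the others added.

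Several of the largest rises were in genes of other kinds. Ch25h, the enzyme that makes 25-hydroxycholesterol, was at 76.6, 98.2, 102, and 103 TPM with BDNF in cultures 1, 2, 10, and 11 and at 2.06 to 5.07 TPM without it (log2 difference 4.57 ± 0.41, adjusted p = 3.31e-10). The treated libraries spread little, and none came near the untreated ones. Crhbp, which binds and sequesters Crh, was nearly absent without BDNF (0.0197 to 0.294 TPM) and was at 16, 12.4, 19.3, and 18.2 TPM with it (3.93). Cpne7, a calcium-dependent membrane-binding copine, was at 32.5, 24.4, 62.1, and 53.7 TPM against 1.66 to 3.53 TPM (3.63). Nmbr, the neuromedin B receptor, was at 6.17, 3.29, 51.5, and 22 TPM against 0.176 to 0.363 TPM (3.41). Thus Nmbr rose in every culture, with its highest values in cultures 10 and 11. Peg10, an imprinted gene derived from a retrotransposon, was at 568, 259, 610, and 583 TPM against 39.0 to 56.3 TPM (3.29 ± 0.37, adjusted p = 1.16e-07).

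The largest fall was that of Mafa. Mafa, a basic leucine zipper transcription factor, was at 1.69, 1.88, 2.08, and 2.86 TPM with BDNF in cultures 1, 2, 10, and 11. Without BDNF it was at 42.2, 31.1, 6.82, 5.97, and 12.1 TPM in cultures 1, 2, 3, 10, and 11 (log2 difference -2.35 ± 0.51, adjusted p = 0.00512). The untreated level of Mafa thus varied between cultures, whereas the treated level was low in all 4. Bmp3, a ligand of the BMP family, was at 14.5, 11, 5.33, and 6.24 TPM with BDNF and at 23.4 to 68.1 TPM without it (-2.21, adjusted p = 0.00182). Sla, an adaptor that resembles Src, was at 14.5 to 43.1 TPM with BDNF and at 69.7 to 103 TPM without it (-1.81), a call that was lost in 6 of 9 fits that left out 1 library. Synm, the intermediate filament protein synemin, was at 7.55 to 11.4 TPM against 27.2 to 33.3 TPM (-1.55), and its groups were widely separated. The receptor phosphatase Ptprk (-1.48), the vasopressin receptor Avpr1a (-1.56), the caveolae protein Cav1 (-1.54), the ubiquitin ligase Rnf152 (-1.51), and the DNA-binding protein Ssbp2 (-1.33) fell as well. Marcksl1-ps4 (-1.49) is annotated as a transcribed pseudogene, so reads could have been split with its parent gene and its value is uncertain.

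Among ion channels, both genes that fell encode T-type (low-voltage-activated) calcium channels. Of 41 voltage-gated and leak channel genes tested, 1 rose and 2 fell, against 1.31% and 0.828% of all genes. The list median was 0.11. Cacna1i was at 8.72, 7.81, 4.88, and 4.86 TPM with BDNF in cultures 1, 2, 10, and 11, and at 26.0, 24.1, 27.8, 13.5, and 14.1 TPM without it in cultures 1, 2, 3, 10, and 11 (log2 difference -1.52, adjusted p = 0.00437). Cacna1g fell by 1.43 on the log2 scale (adjusted p = 0.0200), a call that was lost in 5 of 9 fits that left out 1 library. Its groups overlapped, because cultures 1 and 2 were at 61.4 and 63.1 TPM without BDNF and cultures 10 and 11 at 23.4 and 29.8 TPM. Within each of the 4 cultures Cacna1g was lower with BDNF. In the paired fit 7 members rose, among them Kcna1 and Kcna4, and 4 fell, including Kcnip2 and Kcnq3, against 6.27% of all genes higher and 5.78% lower in that fit.

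Synaptic genes gave few calls, all of them in the glutamatergic list. Its median was 0.29. Of its 28 members tested, 2 rose and 0 fell, against 1.31% and 0.828% of all genes. In the paired fit 9 rose and 0 fell, against 6.27% and 5.78% of all genes. Dlg4, the postsynaptic scaffold PSD-95, was at 328, 327, 303, and 324 TPM with BDNF and at 151 to 192 TPM without it (log2 difference 0.89, adjusted p = 0.00114). Grin2a, an NMDA receptor subunit that increases with maturation, was at 3.21 to 5.08 TPM against 1.31 to 1.74 TPM (1.11, adjusted p = 0.0362), a call that was lost in 8 of 9 fits that left out 1 library. The vesicular glutamate transporter Slc17a7 (1.01) and the AMPA receptor subunits Gria2 (0.62) and Gria3 (0.65) rose in the paired fit. Of 26 presynaptic release genes and 19 GABAergic neuron genes, 0 passed, with medians of -0.05 and -0.27. Over all genes 2.14% passed, so a count of 0 is near that share and nothing is read from it. With the replicate block, 1 presynaptic gene rose (Syp) and 3 fell (Syn2, Syn3, and Sv2b). Among the GABAergic genes, Calb1 rose and Calb2 (-1.22), Maf, and Erbb4 fell in that fit. In both lists these counts were within 2 genes of the shares of all genes in that fit (6.27% higher and 5.78% lower), and nothing is read from them. The summed TPM of the GABAergic list varied more between cultures than with BDNF, from 1790 against 2280 TPM without it in culture 1 to 405 against 487 TPM in culture 10.

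Growth, metabolic, and adhesion lists gave few calls without the block. Of 25 axon growth and regeneration genes, 0 passed (2.14% of all genes did), with a median of -0.37. Their summed level was 21900 to 26500 TPM with BDNF and 32800 to 37600 TPM without it. In the paired fit, where 5.78% of all genes fell and 6.27% rose, 11 of the 25 fell and 0 rose. They included Stmn1 (-0.77), a microtubule-destabilizing protein, Mapt (-0.68), which encodes tau, and Dcx (-0.62), a marker of young neurons. Of 25 genes of the amino acid stress response, 1 rose (1.31% of all genes did), with a median of 0.61. It was Psph (0.80), the last enzyme of serine synthesis. In the paired fit 15 of the 25 rose and 0 fell, against 6.27% and 5.78% of all genes. The added genes included the transcription factors Atf4 (0.56) and Ddit3 (0.86), the amino acid transporters Slc7a5 (1.22) and Slc7a1 (0.91), and Asns (0.98), which makes asparagine. Of 24 cholesterol synthesis genes, 0 passed, a count near the 2.14% of all genes. Pmvk and Ebp rose in the paired fit, a share near the 6.27% of all genes that were higher in it.

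Genes of the neurotrophin pathway itself gave no calls. Of 22 ligands, receptors, and adaptors tested, 0 passed, and the list median was -0.13. Over all genes 2.14% passed, so a count of 0 is near that share and nothing is read from it. Ntrk2, which encodes TrkB, was at 23.9, 19.3, 23.9, and 24.4 TPM with BDNF in cultures 1, 2, 10, and 11, and at 31.2, 29.8, 25.7, 31.6, and 33.1 TPM without it in cultures 1, 2, 3, 10, and 11. The groups did not overlap, and the log2 difference of -0.39 did not pass (adjusted p = 0.671). In the paired fit the difference was -0.48 (adjusted p = 0.0150), with a fall in each of the 4 cultures. The gene for BDNF was at 1.41, 1.29, 12.8, and 3.84 TPM with BDNF and at 0.913, 0.743, 4.26, 3.93, and 1.25 TPM without it, a difference of 0.61 that did not pass (adjusted p = 0.719). One library, culture 10 with BDNF, held the highest Bdnf level, and without cultures 10 and 11 the difference was -0.15. In the paired fit 1 member rose, the adaptor Shc3 (0.72), and 2 fell, Ntrk2 and the p75 receptor gene Ngfr (-0.67). These counts were near the shares of all genes in that fit (6.27% higher and 5.78% lower), and nothing is read from them.

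Focal adhesion genes, the list that holds paxillin, gave 1 call. Of 31 focal adhesion genes tested, 1 rose (1.31% of all genes did) and 0 fell, with a median of -0.03. It was Vcl, which encodes the actin-binding protein vinculin, at 23.3, 17.3, 18.8, and 15.1 TPM with BDNF and at 4.79 to 11.2 TPM without it (log2 difference 1.24, adjusted p = 0.00846). In the paired fit 2 members were higher, Vcl and Itga6, a laminin-binding integrin subunit (0.86). That is a share near the 6.27% of all genes, and nothing is read from it. Of 41 splicing factors, 0 passed, a count near the 2.14% of all genes, with a median of -0.08 and a range of -0.46 to 0.32. Elavl3 alone fell in the paired fit (-0.31), a lower share than the 5.78% of all genes. These values are gene totals and hold no information on which exons were included.

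**Figure D3:**
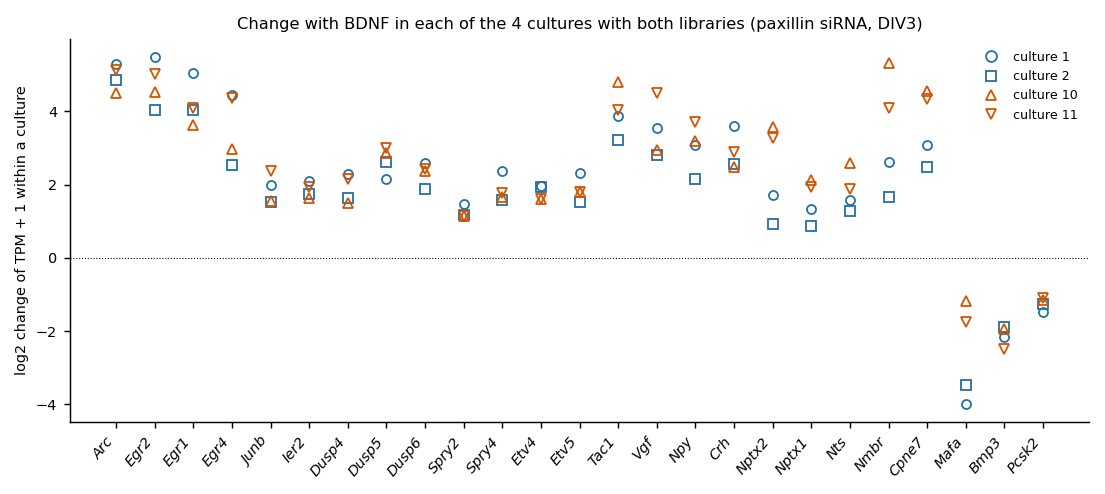
Change of log2(TPM + 1) with BDNF within cultures 1, 2, 10, and 11 (y axis) for 25 of the named genes (x axis). Each symbol is 1 culture, blue for cultures 1 and 2 and orange for cultures 10 and 11. Spry2 lies between 1.15 and 1.48 in all 4 cultures, whereas Nmbr lies between 1.66 and 5.34.

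The size of the response varied between cultures for some genes and hardly for others. Spry2 changed by 1.15 to 1.48 on the log2 scale, and Arc by 4.51 to 5.29. Nmbr changed by 2.13 on average in cultures 1 and 2 and by 4.72 in cultures 10 and 11, and Nptx2 by 1.32 and 3.43. Mafa went the other way, with -3.74 in cultures 1 and 2 and -1.47 in cultures 10 and 11. Astrocyte markers summed to 879 to 1120 TPM in the 4 libraries of cultures 1 and 2 and to 344 to 581 TPM in the 4 of cultures 10 and 11. Their part in these values was not tested. Without cultures 10 and 11, 29 genes passed, 28 higher and 1 lower, and without cultures 1 and 2, 116 passed. Of the named genes, Arc, Egr2, Ch25h, Egr1, Cpne7, Egr4, Peg10, Dusp5, Etv4, and Fam131a were past the threshold in both.

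The same treatment under SC siRNA was used to ask whether the response depended on the siRNA label. With 3 libraries against 3, 172 genes passed (1.21%), and 117 of them were among the 305, or 38.4% of the 305 and 68% of the 172. Of the 305 genes, 304 had the same sign under both labels, against 68.2% of all genes tested. Arc differed by 4.97 with paxillin siRNA and 4.80 with SC siRNA, Egr2 by 4.70 and 5.16, Tac1 by 4.02 and 3.81, and Mafa by -2.35 and -2.96. Over the 305 genes, which were chosen on the paxillin siRNA libraries, the correlation of the differences across genes was 0.979. The labels share the culture numbers 1, 2, and 3, and genes are not independent replicates.

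Tested directly, the response differed between the siRNA labels for 0 genes (0.0% of those tested, limma), with 162 at an unadjusted p under 0.05. The count past the adjusted threshold was 0 with the paired fit and in every other fit that was run. At an unadjusted p under 0.05 (limma), the paired fit gave 920 genes, and 1440 when it held only the groups compared. Both are more than 5% of the genes tested. A count of 0 does not show that the responses were equal. The 95% interval of the difference extended by a median of 0.72 to each side over the 305 genes, on the log2 scale, and it held 0 for 301 of them. In the main fit, whose spread includes that between cultures, it left out 0 for 1.31% of the 305 genes and 1.14% of all genes. Both are below the 5% that such intervals leave out where there is no difference. The 4 genes were Ninj1, an adhesion protein that acts in membrane rupture (0.77, interval 0.26 to 1.29), Fut9 (-1.10), Tiparp (-0.74), and Efr3a (-0.43), the last 3 named after their values were seen. Ninj1 was also the only gene of the 305 with opposite signs, at 0.66 with paxillin siRNA and -0.12 with SC siRNA. The other genes with the smallest p were Rpph1, 2900093K20Rik, and Ptpn4, with differences of 1.96, 1.17, and -0.78 (adjusted p = 1 for all 4). For Arc the difference was 0.17 with an interval of -1.07 to 1.41, and for Pxn it was 0.33 with an interval of -0.25 to 0.92.

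**Figure D4:**
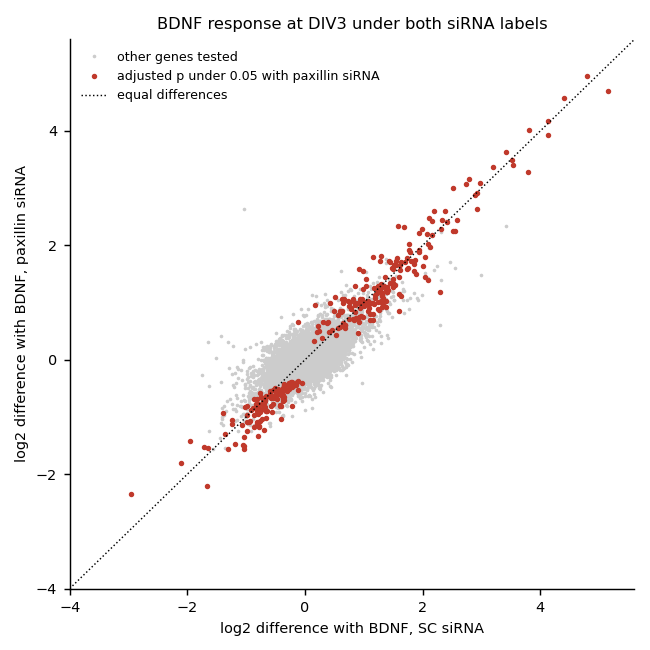
Log2 difference with BDNF at DIV3 under SC siRNA (x axis) and under paxillin siRNA (y axis) for the 14250 genes tested. Red points are the 305 genes past the threshold with paxillin siRNA, and the dotted line marks equal differences. Red points lie along the line, and 304 of them have the same sign on both axes.

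The response was then compared with later days under the same siRNA label. At DIV5 (5 libraries with BDNF and 6 without), 2 genes passed (0.014%), namely Cntn6 (-0.99) and Rps6ka2 (-0.59). At DIV10 (2 and 4 libraries) 2 passed, Sebox (3.18) and Tshz2 (2.16), and all 4 are named after their values were seen. The DIV10 libraries with BDNF were from cultures 10 and 11 only, and those without it from cultures 1, 2, 10, and 11. Every DIV10 difference given here therefore mixes BDNF with culture number, and the part of culture was not tested. Cntn6, a contactin cell adhesion molecule, also fell at DIV3, by 0.75 on the log2 scale. BDNF was added at DIV2 in all of them, so the age of the culture and the time since BDNF was added cannot be told apart. Of the 305 genes, 277 had the same sign at DIV5 (90.8%, against 59.6% of all genes) and 204 at DIV10 (66.9%, against 50.1%). At DIV5 the median difference was 0.26 for the 187 higher genes and -0.30 for the 118 lower ones. Each of the 187 had a smaller difference at DIV5, as had 117 of the 118, but these genes were chosen for passing at DIV3.

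The difference between days was itself past the threshold for 19 genes (0.133%), 18 of them with a larger value at DIV3 (0.126%). The other was the growth factor gene Gdf9, at -0.60 at DIV3 and 0.26 at DIV5, also named after its values were seen. With culture as a replicate block, the test gave 446 genes. Arc differed by 4.97 at DIV3 and 0.84 at DIV5, and Egr2 by 4.70 and 0.83 (limma, adjusted p = 1.12e-05 and 2.58e-06 for the difference between days). Peg10 went from 3.29 to 0.26 and Fam131a from 1.92 to 0.05. Egr1 (4.17 and 0.93), Ch25h (4.57 and 1.44), and Cpne7 (3.63 and 1.31) were also among the 19. The peptides were not among them. Tac1 differed by 4.02, 2.38, and 3.71 at DIV3, DIV5, and DIV10, and Npy by 3.16, 1.59, and 2.73. At DIV5 and DIV10 neither peptide passed (limma, adjusted p = 0.135 and 0.154 for Tac1, 0.627 and 0.246 for Npy). Between DIV3 and DIV5 neither change was detectable with this number of libraries (adjusted p = 0.983 and 0.999). At DIV10, where only cultures 10 and 11 had a library with BDNF, Arc differed by 1.76, Cpne7 by 1.62, Egr2 by 0.55, and Peg10 by 0.38. Fam131a (0.25), Egr1 (0.22), and Ch25h (-0.10) differed by less there, and none of these genes passed at DIV10.

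**Figure D5:**
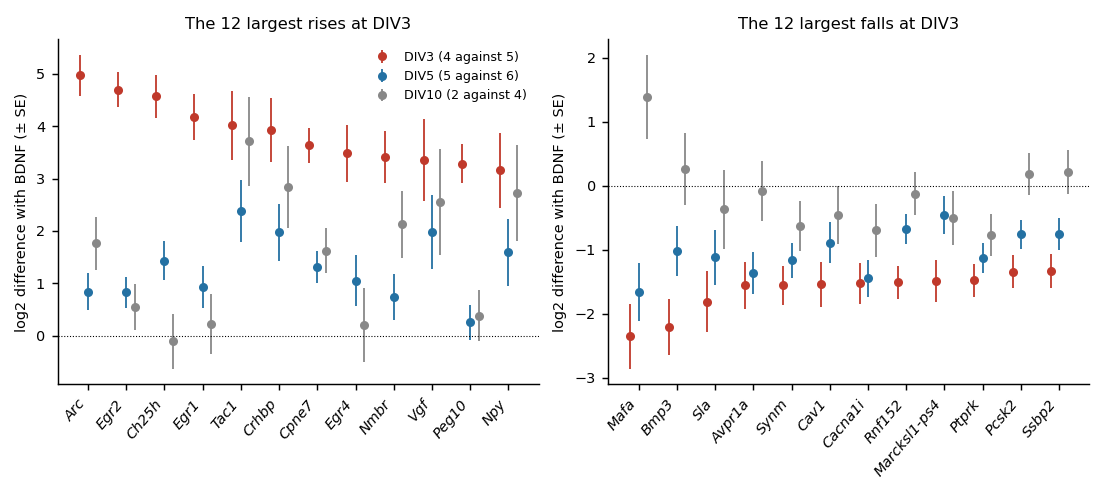
Log2 difference with BDNF under paxillin siRNA (y axis, ± SE of the limma fit) at DIV3, DIV5, and DIV10 for the 12 largest rises (left) and the 12 largest falls (right) at DIV3. Arc, Egr2, and Peg10 are above 3 at DIV3 and below 1 at DIV5, while Tac1 is above 2 on all 3 days. None of these genes passed at DIV5 or DIV10, and the DIV10 libraries with BDNF are from cultures 10 and 11 only.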

How the data were processed

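RNA of the cultures was sequenced as paired-end reads after mRNA library preparation. The authors aligned the reads to GRCm38 with STAR 2.7.10, estimated abundance with RSEM 1.3.3, and deposited TPM values for 39756 genes, without pooling of libraries. TPM sum to 1000000 in each library, so counting error is unknown and no count test was used.

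Log2(TPM + 1) was fitted with limma 3.58.1 in R 4.3.3 (lmFit, contrasts, and eBayes with a trend) in a single model of all 48 short-read libraries, with a coefficient per group. The fit was run over 14250 genes that averaged 1 TPM or more, and p-values adjusted by Benjamini-Hochberg were called under 0.05. P-values measure the spread between these libraries. Groups were taken from the labels. Pxn was compared by a 2-sided exact permutation test. Same-culture libraries with and without BDNF had correlated deviations from their group means (0.745, 0.609, 0.569, and 0.440 for cultures 1, 2, 10, and 11). Numbers 1 with 2 and 10 with 11 correlated as well (0.295 to 0.456), whereas numbers from different sets correlated negatively (-0.615 to -0.368). Deviations from a group mean cancel out within the group, so part of this contrast is built in. Each library of these numbers correlated best with its own number. The culture number was taken to pair them, and a fit with culture within day as a block was run beside the main one.

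Named genes are Pxn, Bdnf, Ntrk2, the 12 largest rises and falls without overlap, called members of 13 lists written from general knowledge, and the 4 genes with the smallest p in each test of a difference. The comparison, the lists, and this rule were chosen with earlier results of these data known. Positions and promoters came from RefSeq (GRCm38.p6), where 33 of 55 named genes had a promoter. A simulated log2 change of 1 in 200 genes of this comparison, over 14250 genes, was recovered for 77.5% of them, and 6.06% of the calls were false. The simulated noise was independent between genes and libraries, without the deviations shared within cultures, so these rates need not hold for the real libraries. Alternatives were another pseudocount, other filters, size factors, fewer groups, no trend, the block, and left-out libraries. The long-read table of hippocampus was not used here. Values of 2 ion channel genes are not reported here, although the counts of their list include them. Permutation tests ran in scipy 1.17.1 and figures in matplotlib 3.10.9, under Python 3.11.15 with pandas 2.3.3 and numpy 2.4.6.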

Additional observations from a re-analysis of the deposited data

Results flagged for a closer look

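Among the 110 groups of libraries tested for a value far from the others (named genes, both DIV3 groups), 7 had one, and chance gives about 1 in 20. All 7 were in the group with BDNF. Culture 2 had Pxn at 11.8 TPM (10.0 to 10.3 TPM in the other 3), Ntrk2 at 19.3 TPM (23.9 to 24.4 TPM), Peg10 at 259 TPM (568 to 610 TPM), and Cpe at 147 TPM (179 to 185 TPM). Culture 1 had Ch25h at 76.6 TPM (98.2 to 103 TPM) and Dusp6 at 656 TPM (449 to 477 TPM). Culture 10 had Dlg4 at 303 TPM (324 to 328 TPM). In Ch25h, Peg10, Dusp6, Cpe, and Dlg4, every one of these libraries remained above all 5 libraries without BDNF.

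The response under paxillin siRNA differed between DIV3 and DIV5, by the test of the difference itself, for 7 named genes. The log2 difference at DIV3 exceeded that at DIV5 by 4.12 for Arc, 3.87 for Egr2, 3.24 for Egr1, 3.13 for Ch25h, 3.03 for Peg10, 2.33 for Cpne7, and 1.87 for Fam131a. Age and time since BDNF was added cannot be told apart here.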

How the results depend on the processing

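No gene called among the 305 changed sign in any alternative. The number of genes called was 864 (521 higher, 343 lower) when only the groups compared were fitted, 792 (417 and 375) with the 15 DIV3 libraries, 1717 (894 and 823) with culture as a replicate block, and 2441 (1395 and 1046) with the replicate block in the groups compared only. Without cultures 10 and 11 it was 29 (28 and 1), without cultures 1 and 2 it was 116 (82 and 34), and without a filter 301 genes were higher. After rescaling by size factors 188 were higher and 151 lower. With 1 library left out, 164 to 287 genes passed (118 to 178 higher, 46 to 111 lower). The lowest count was without culture 10 with BDNF, and 183 passed without culture 11 with BDNF.

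The test of DIV3 against DIV5 gave 40 genes without a filter (39 larger at DIV3), 47 (46) with only the groups compared, 446 (314 larger and 132 smaller) with the replicate block, and 1062 (603 and 459) with the block in those groups. It gave 4 without cultures 10 and 11 (4 larger and 0 smaller), 0 smaller without cultures 1 and 2, 2 smaller after size factors, and 12 to 22 with 1 library left out, of which 0 to 1 were smaller. The difference of Pxn was 0.2115 with size factors (exact permutation p = 0.0476) and 0.1631 to 0.2931 with 1 library left out. The differences of Bdnf (-0.1452), Rpph1 (-0.3532), and 2900093K20Rik (-0.0052) changed sign without cultures 10 and 11. The difference of Ptpn4 ranged from -0.1595 to 0.0478 with 1 library left out and changed sign without culture 11 of the libraries without BDNF. None of these 4 passed in either case, and the cause was not tested.

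Of 49 named genes past the threshold, 38 lost it without cultures 10 and 11 and 27 without cultures 1 and 2, where fewer libraries were compared, and 0 lost it in the paired fit, which changed no other call than those given. With 1 library left out, 2 to 15 lost it. Unknown depth limits what can be said of genes at low TPM.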

Other observations

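Genes named here were chosen after their values were seen, from the 305 that passed. Galr1, a galanin receptor, was at 0.0186 to 0.254 TPM without BDNF and at 2.72 to 38.2 TPM with it (log2 difference 3.09). Sstr2, a somatostatin receptor, was at 29.3 to 46.4 TPM and at 164 to 222 TPM (2.40), Cckbr, a cholecystokinin receptor, at 0.434 to 1.45 TPM and at 4.41 to 15.4 TPM (2.28), and Chrm1, a muscarinic receptor, at 9.12 to 21.8 TPM and at 36.3 to 81 TPM (1.75). Grm3, a metabotropic glutamate receptor, fell by 1.16 on the log2 scale, from 2.92 to 4.78 TPM down to 1.04 to 1.45 TPM.

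Adcy8, which encodes an adenylyl cyclase, rose by 1.31, from 1.22 to 1.84 TPM up to 3.25 to 8.59 TPM, and Adcy1, which encodes another, fell by 1.13 on the log2 scale, from 87.1 to 124 TPM down to 41.1 to 51.0 TPM. Nab2, a corepressor of Egr proteins, was at 16.1 to 23.7 TPM without BDNF and at 110 to 130 TPM with it (2.60), with a change of 2.44 to 2.84 within the 4 cultures. Cyp26b1, which degrades retinoic acid, rose by 3.07, and Rreb1, a zinc finger factor that acts with Ras signaling, by 2.88. Nnat, neuronatin, was the most abundant of the genes named here, at 3070 to 3720 TPM without BDNF and 6470 to 16600 TPM with it (1.56).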
